A study of Rattus norvegicus with 10 samples.

Results

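The monocarboxylate transporter genes of family Slc16 and Bsg, the gene of their membrane chaperone, were followed in the submandibular gland of 2 rat strains. The 10 genes were Slc16a1, Slc16a3, Slc16a4, Slc16a6, Slc16a7, Slc16a8, Slc16a10, Slc16a11, Slc16a13 and Bsg, of 15168 genes named on the array. All 10 were matched by RefSeq accession to 1 probe each, and all passed the filter on dim probes. The family was taken up because Slc16a4 was higher in one strain in these same arrays, so the strain difference of Slc16a4 is described here without a test; the other 9 genes came in by name. Each sample, taken here as 1 rat, was measured on 1 one-colour Agilent array with labelled RNA amplified from total RNA. The hypertensive strain, SHR (Spontaneously Hypertensive), is inbred and develops high blood pressure; it had 5 arrays, and the Wistar Kyoto rat (WKY), the usual comparison strain, had 5. All 10 rats were males aged 14 weeks with no treatment named. They are called here by strain and title number, such as SHR 3-3.

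Most mammalian cells make lactate and some burn it, and it crosses the membrane together with a proton through transporters of this family. The proteins of Slc16a1, Slc16a7, Slc16a8 and Slc16a3, known as MCT1 to MCT4, carry lactate, pyruvate and ketone bodies. They reach the cell surface only with an immunoglobulin-type partner, which is usually basigin, the product of Bsg. Other members carry different cargo: Slc16a10 moves aromatic amino acids and thyroid hormones, and Slc16a4, whose protein is called MCT5, is an orphan member without a well established substrate. Salivary duct and acinar cells consume much energy for ion transport and secretion.

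The promoter windows of 3 members are shown because they set the member with the strain difference beside its relative on the same chromosome and beside the chaperone. The windows run from 250 bases before to 50 bases after the gene start, from RefSeq on build GRCr8, 5′ to 3′ on the gene's strand. That build is of the Brown Norway rat, so the letters are not those of SHR or WKY. Capitals mark CpG pairs.
Slc16a4 (chr2:197599190-197599489, plus strand): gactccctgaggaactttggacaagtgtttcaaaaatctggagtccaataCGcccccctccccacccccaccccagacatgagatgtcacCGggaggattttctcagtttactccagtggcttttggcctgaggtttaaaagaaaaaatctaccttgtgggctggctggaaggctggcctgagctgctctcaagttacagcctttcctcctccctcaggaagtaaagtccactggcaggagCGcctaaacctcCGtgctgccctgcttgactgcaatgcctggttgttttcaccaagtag
Slc16a1 (chr2:194812410-194812709, plus strand): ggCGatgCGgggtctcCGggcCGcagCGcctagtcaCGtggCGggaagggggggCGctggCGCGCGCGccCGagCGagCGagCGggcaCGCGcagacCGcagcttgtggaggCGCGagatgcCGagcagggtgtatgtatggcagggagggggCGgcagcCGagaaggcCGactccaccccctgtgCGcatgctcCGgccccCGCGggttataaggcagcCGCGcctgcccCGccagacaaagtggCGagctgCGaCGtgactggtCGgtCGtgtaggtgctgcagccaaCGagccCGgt
Bsg (chr7:10650956-10651255, minus strand): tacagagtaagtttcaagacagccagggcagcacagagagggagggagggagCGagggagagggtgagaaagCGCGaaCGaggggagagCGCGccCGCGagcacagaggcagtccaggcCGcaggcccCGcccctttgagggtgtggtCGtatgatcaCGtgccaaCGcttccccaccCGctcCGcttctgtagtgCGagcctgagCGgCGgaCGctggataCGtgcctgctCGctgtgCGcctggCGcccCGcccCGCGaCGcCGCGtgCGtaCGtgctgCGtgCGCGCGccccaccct
The Slc16a4 window holds 4 CpG pairs, against 39 in that of Slc16a1 and 35 in that of Bsg; the median over 33469 windows of the same length is 7. Its GC content is 52.7%, against 72.7% and 69.0%. In all, 8 of the 10 genes had an entry in the promoter table. The other 5 windows held 0 (Slc16a8), 7 (Slc16a3), 8 (Slc16a7 and Slc16a11) and 26 (Slc16a10) CpG pairs. On both strands the windows were searched for the TATA box TATAAA, the CCAAT box CCAAT, the E-box CACGTG, the hypoxia response core ACGTG (which every E-box of this form contains) and the GC box GGGCGG. The Slc16a4 window held 1 CCAAT box and 0 of the others. The CCAAT box is found in 37.5% of all windows, the TATA box in 14.2%, the E-box in 6.42%, the hypoxia response core in 19.3% and the GC box in 33.1%. The Slc16a1 window held 1 E-box, 3 hypoxia response cores and 1 GC box, and the Bsg window 1, 4 and 2. Neither held a TATA box or CCAAT box. The cores were counted on each strand, so an E-box counts among them on both. All these hits are matches of letters, not measured sites.

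Each array had 42877 spots, of which 94.8% to 97.7% exceeded background clearly by the scanner software's own criterion and 0 reached saturation. The number of arrays limits the precision. Acinar and granular duct genes stood high on these arrays: Slc12a2 and Aqp5, of salivary acini, and Egf, a growth factor of granular ducts, had mean levels at the 99.3, 98.2 and 98.6 percentile of tested genes. Smgc, a submandibular secretory protein gene on the list of acinar markers, fell by 4.10 ± 0.35 (SE; limma adjusted p = 2.3e-05) in SHR. The other acinar markers tested lay higher in SHR: Oprpn by 0.61, Aqp5 by 0.38, Bhlha15 by 0.33 and Slc12a2 by 0.23. Of these only Oprpn passed (limma adjusted p = 0.0434), and it did not pass with quantile normalisation or the authors' values. Array SHR 3-3 stood apart, since 420 genes lay there 2-fold or more under the average of its strain mates; each remaining SHR array had 31 to 45 such genes. Arrays with the same recorded scan time are called a slide here. SHR 2-1 shared one with WKY 1-5, 4-1 and 4-2. The other 4 SHR arrays were on a slide of their own and WKY 1-2 and 1-3 on another. A strain difference within 1 slide therefore rests on SHR 2-1. In whole tissue, fewer cells of a type and less RNA per cell cannot be told apart.

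The Slc16a4 probe gave a signal in the glands of both strains, about 10 times higher in SHR. Values below are log2 intensities relative to the array's own 75th percentile, so that 0 is a spot as bright as that percentile. In SHR the Slc16a4 value was 1.63 in SHR 2-1, 1.25 in SHR 2-3, 1.54 in SHR 3-1, 1.14 in SHR 3-3 and 1.56 in SHR 3-4. In WKY it was −1.95 in WKY 1-2, −1.99 in WKY 1-3, −2.06 in WKY 1-5, −1.79 in WKY 4-1 and −1.86 in WKY 4-2. Every SHR rat thus lay above the 75th percentile of its array and every WKY rat below it, and the strains did not come near each other. The lowest SHR array, SHR 3-3, was the dimmest array of the series. In units of the array percentile, SHR signals ran from 221% to 310.0% of it and WKY signals from 24.0% to 28.9%. The probe was well above background on all 10 arrays. Of all spots, 94.8% to 97.7% per array met that criterion. It therefore does not separate transcript from non-specific signal in WKY.

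The Slc16a4 means were 1.42 ± 0.21 (SD, n = 5) in SHR and −1.93 ± 0.11 (SD, n = 5) in WKY. Their log2 difference was 3.36 ± 0.11 (SE; 95% interval 3.12 to 3.59), a 10.2-fold excess in SHR. As the gene was chosen by this difference, no test is attached to it. The interval takes no account of that choice and describes the spread of these arrays only. On the slide that carried both strains the difference was 3.54, and without SHR 3-3 it was 3.43. In the authors' deposited table the Slc16a4 values were 10.1 to 10.7 in SHR and 6.97 to 7.20 in WKY on the log2 scale. The 2 processings give nearly the same gap, but both start from the same scans, so this is not independent support. The array holds 1 named probe for Slc16a4, spotted 1 time, so no second probe could be set beside it. Markers of macrophages moved with strain in the opposite sense: the mean level of 5 genes ran from −1.42 to −0.76 in SHR and from −0.59 to −0.29 in WKY. Their part in the Slc16a4 difference was not tested.

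**Figure D1:**
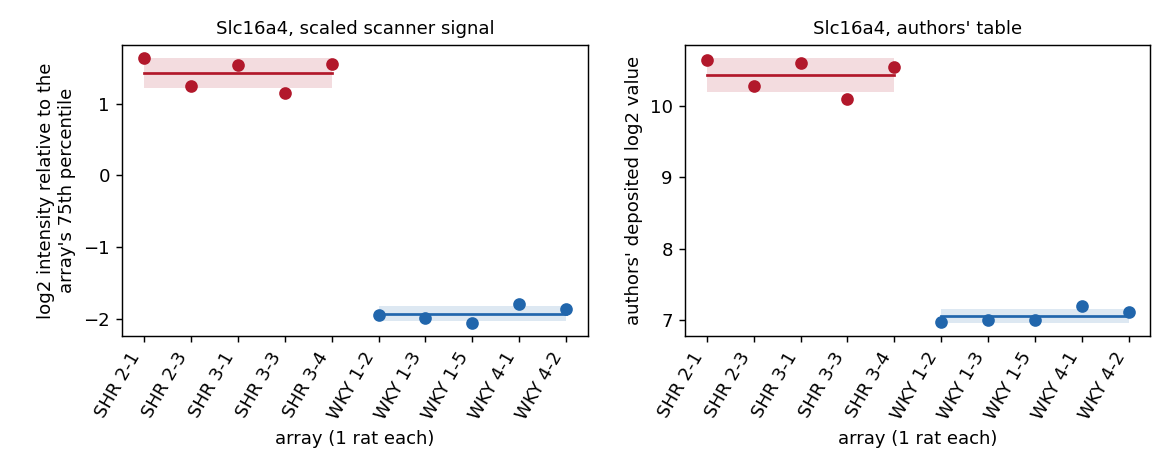
Slc16a4 on each of the 10 arrays, as log2 intensity relative to the array's 75th percentile (left) and as the authors' deposited log2 value (right). Points are single rats, lines the strain means and bands 1 SD (n = 5 per strain). The SHR rats lie between 1.14 and 1.63 on the left and the WKY rats between −2.06 and −1.79.

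Of the 9 genes that came in by name, 0 passed a limma adjusted p of 0.05, against 4.36% of all 14711 genes tested (1.51% upward and 2.85% downward; 0.843% passed with a change of 2-fold or more). At an unadjusted limma p below 0.05, 2 of them passed, Slc16a3 and Slc16a7, beside 2990 of all 14711 genes. That is near the share over all genes. Lower genes made up 65.4% of the calls over all genes, but 54.5% with quantile normalisation, 53.5% after scaling to the array median, 55.3% with normexp and 50.6% with the authors' values. The strains overlapped for each of the 9, while 7.25% of all genes were free of overlap (3.14% with SHR above and 4.11% with SHR below). The median log2 difference of these 9 was −0.10, beside −0.02 over all genes tested. Between them the differences ran from −0.57 for Slc16a3 to 0.32 for Slc16a11. Adjusted p-values below are from limma over all 14711 genes unless stated otherwise.

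**Figure D2:**
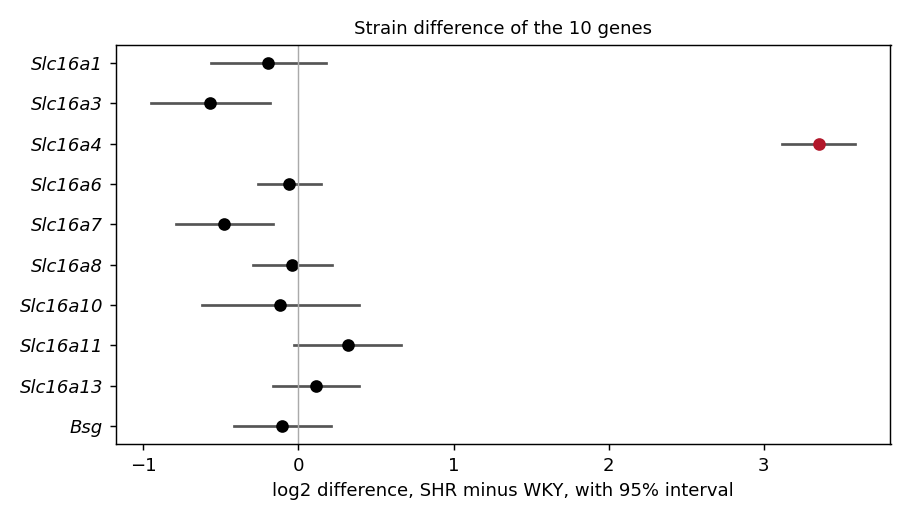
Log2 difference of SHR minus WKY for the 10 genes, with 95% intervals from the limma fit on 5 arrays per strain. Slc16a4 (red) lies at 3.36, and the intervals of Slc16a3 and Slc16a7 lie below 0 before adjustment for the number of genes tested. The interval of Slc16a4 takes no account of the choice of that gene by its difference.

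Among the proton-coupled lactate carriers, the lowest values relative to WKY were those of Slc16a3 and Slc16a7. Slc16a3 encodes MCT4, the carrier typical of cells that export lactate. Its log2 value was −1.96 in SHR 2-1, −2.25 in SHR 2-3, −2.31 in SHR 3-1, −2.93 in SHR 3-3 and −2.14 in SHR 3-4. In WKY it was −1.42 in WKY 1-2, −1.56 in WKY 1-3, −2.04 in WKY 1-5, −1.79 in WKY 4-1 and −1.94 in WKY 4-2. SHR 2-1 lay above WKY 1-5, so the strains overlapped by that pair, and SHR 3-3 was the lowest of all. The means were −2.32 ± 0.37 (SD, n = 5) and −1.75 ± 0.26 (SD, n = 5). The Slc16a3 difference was −0.57 ± 0.18 (SE), with a limma adjusted p of 0.0888, which misses the threshold, and a 95% interval of −0.95 to −0.19. Without SHR 3-3 it was −0.41, and on the shared slide, where SHR 2-1 stands against 3 WKY rats, it was −0.04. With slide as a random block the log2 difference of Slc16a3 was −0.64 and passed (limma adjusted p = 0.00583). It also passed when the leading number of the titles was the random block (−0.60, limma adjusted p = 0.0239). Both blocks had an estimated correlation below 0 (−0.19 and −0.16), which narrows the error of a difference between strains.

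Slc16a7 encodes MCT2, a carrier with high affinity that is typical of cells taking up lactate or pyruvate, and its probe was spotted 10 times on each array. The Slc16a7 values were −1.03 in SHR 2-1, −1.04 in SHR 2-3, −0.65 in SHR 3-1, −1.42 in SHR 3-3 and −1.03 in SHR 3-4. In WKY they were −0.70 in WKY 1-2, −0.60 in WKY 1-3, −0.81 in WKY 1-5, −0.33 in WKY 4-1 and −0.32 in WKY 4-2. Only SHR 3-1 lay within the WKY range; the other 4 SHR rats were below every WKY rat. The difference was −0.48 ± 0.14 (SE, n = 5 per strain; limma adjusted p = 0.0814; 95% interval −0.79 to −0.17). On the shared slide it was −0.54, without SHR 3-3 it was −0.38, and without SHR 3-1 it was −0.58 and passed (limma adjusted p = 0.0380). The log2 difference of Slc16a7 also passed with array weights (−0.47, limma adjusted p = 0.0401) and with the slide (−0.49, 0.00681) or the leading title number (−0.46, 0.0318) as random block.

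Slc16a1 encodes MCT1, the most widely expressed lactate carrier. It ran from −3.83 to −3.17 in SHR, with a median of −3.46, and from −3.65 to −2.88 in WKY, with a median of −3.38. The strains overlapped over most of their range, and WKY 4-1 and 4-2 were the highest 2 rats. The difference was −0.20 ± 0.17 (SE), and its 95% interval of −0.57 to 0.17 includes 0 (limma adjusted p = 0.553). On the shared slide, with WKY 4-1 and 4-2 among its 3 WKY rats, it was −0.50.

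Slc16a8, best known as the lactate carrier MCT3 of the retinal pigment epithelium, was well above background on all 10 arrays. It ran from −2.73 to −2.12 in SHR and from −2.46 to −2.18 in WKY. The Slc16a8 difference was −0.04 ± 0.12 (SE), with a 95% interval of −0.30 to 0.21 (limma adjusted p = 0.879).

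Bsg encodes basigin, the partner that MCT1 and MCT4 need at the membrane. The Bsg values were −0.25, −0.06, 0.07, −0.82 and −0.27 in SHR 2-1, 2-3, 3-1, 3-3 and 3-4. In WKY they were all between −0.31 and −0.09. SHR 3-3 lay far below the other SHR rats, which overlapped the WKY range or passed it. The difference was −0.10 ± 0.14 (SE; limma adjusted p = 0.731), with a 95% interval of −0.42 to 0.21, and without SHR 3-3 it was 0.03. Of the 95% intervals of these 4 carriers and Bsg, that of Slc16a3 reached farthest from 0, to −0.95.

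The members with other or less settled cargo did not pass either. Slc16a11 and Slc16a13 are adjacent genes on chromosome 10, both lying in a region linked to type 2 diabetes in human studies. Slc16a11 was 3.12, 2.99, 3.50, 3.03 and 3.69 in SHR 2-1, 2-3, 3-1, 3-3 and 3-4, and 2.94, 2.71, 3.23, 3.17 and 2.70 in WKY 1-2, 1-3, 1-5, 4-1 and 4-2. The highest 2 rats were SHR and the lowest 3 were WKY, with overlap between. The difference was 0.32 ± 0.16 (SE; limma adjusted p = 0.284; 95% interval −0.03 to 0.66), and 0.09 on the shared slide. The log2 difference of Slc16a11 passed with the slide as a random block (0.34, limma adjusted p = 0.0492). Slc16a13, its neighbour, had means of −1.46 ± 0.25 (SD, n = 5) in SHR and −1.57 ± 0.16 (SD, n = 5) in WKY and a difference of 0.11 ± 0.13 (SE; limma adjusted p = 0.667).

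Slc16a6, whose product MCT7 has been linked to ketone body export from the liver, was the member whose WKY rats lay closest together. It ran from −2.56 to −2.43 in WKY and from −2.75 to −2.38 in SHR. The difference was −0.06 ± 0.09 (SE; limma adjusted p = 0.775), with a 95% interval of −0.26 to 0.14. Slc16a10, the transporter of aromatic amino acids and thyroid hormones, lay at the edge of detection: it was well above background on 3 of 5 SHR and 4 of 5 WKY arrays. Its SD was the largest of the 10 genes in both strains, 0.45 in SHR and 0.42 in WKY (n = 5 each). The Slc16a10 difference of −0.12 ± 0.23 (SE; limma adjusted p = 0.823) has a 95% interval from −0.62 to 0.39.

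**Figure D3:**
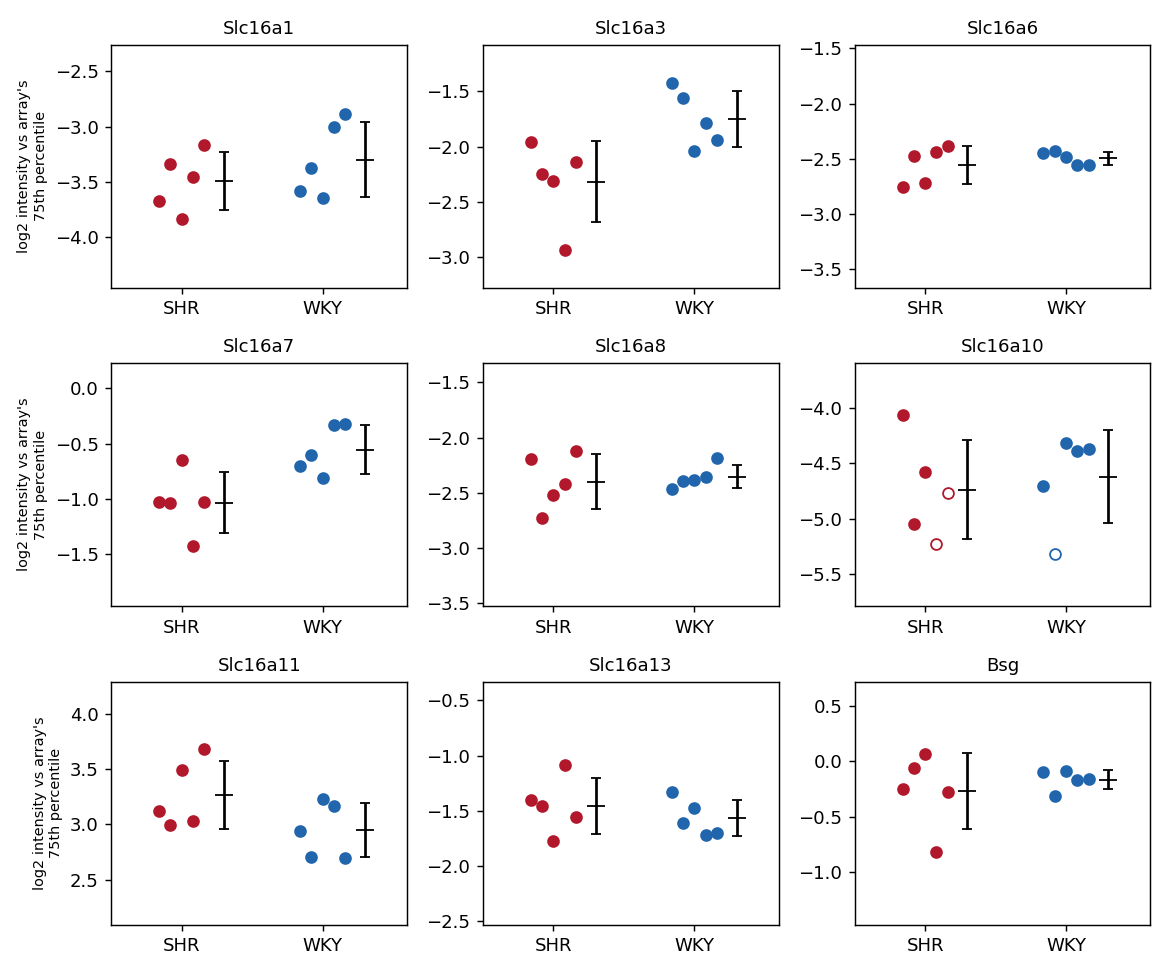
The 9 genes other than Slc16a4 on each array, as log2 intensity relative to the array's 75th percentile; every panel spans the same height. Points are rats, filled where the probe was well above background, and the bars are the mean ± SD (n = 5 per strain). The strains overlap in all 9 panels.

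Of a further list of 9 Slc16 genes, partners and sodium-coupled carriers, 8 were tested and 0 passed in either direction, with a median log2 difference of −0.06. Slc16a14, a little-studied member, had the largest, −0.36 ± 0.12 (SE, n = 5 per strain; limma adjusted p = 0.108). Slc16a14 passed with the slide (−0.40, limma adjusted p = 0.00836) or the leading title number (0.0309) as random block, and on the shared slide it differed by −0.06. Slc5a12, a sodium-coupled lactate carrier, differed by −0.23 ± 0.13 (limma adjusted p = 0.347). It passed with the slide as a random block (limma adjusted p = 0.0410) and turned to 0.10 on the shared slide. Emb, the embigin partner of MCT2, differed by −0.02. The 2 probes of Slc16a5 did not move alike: the brighter one differed by 0.08 ± 0.15 (SE) and the dimmer one by −0.39 ± 0.12, with limma adjusted p of 0.803 and 0.109 over all probes. Slc16a9 was not analysed here.

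Glycolysis and lactate genes, which make the cargo of these carriers, passed in 2 of 22 tested members, 1 in each direction, beside 4.36% of all genes; their median was −0.09. Both calls were lost with slide as a fixed block, where the strain difference rests on SHR 2-1. Both were kept with slide as a random block, which narrowed the error. Hk3, a hexokinase found mainly in myeloid cells, fell by 1.40 ± 0.18 (SE, n = 5 per strain; limma adjusted p = 8.8e-04). Its values ran from −1.91 to −1.22 in SHR and from −0.59 to 0.35 in WKY, without overlap. With slide as a fixed block the Hk3 difference was −1.02. Of 5 macrophage markers, 2 passed, both lower in SHR (2.85% of all genes were): Cd68, a lysosomal glycoprotein, by −0.97 and Aif1, an actin-binding protein, by −0.81. With slide as a fixed block both calls were lost (Cd68 −0.77, Aif1 −0.55), and with slide as a random block both were kept. The call of Aif1 was also lost without any 1 of SHR 2-3 or 3-1 or WKY 1-3, 4-1 or 4-2 (limma adjusted p up to 0.0851). The 2 probes of Csf1r, another of the 5 markers, did not move alike. The brighter one differed by −0.22 ± 0.13 (SE; limma adjusted p = 0.396 over all probes). The dimmer one differed by −0.59 ± 0.12 and passed (limma adjusted p = 0.0154 over all probes). The part of these markers in the Hk3 result was not tested. Eno1, the glycolytic enolase, rose by 0.68 ± 0.16 (SE; limma adjusted p = 0.0321). The call of Eno1 was lost with slide as a fixed block (0.52). It was also lost without any 1 of SHR 2-3, 3-1 or 3-4 or WKY 1-2, 1-3, 1-5 or 4-2 (limma adjusted p up to 0.0900). Ldha, the lactate dehydrogenase subunit that forms lactate, differed by −0.27 ± 0.21 and Ldhb by 0.02 ± 0.29, and neither passed (limma adjusted p = 0.498 and 0.979).

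No gene passed of 13 for pyruvate entry into mitochondria (median −0.18), of 7 for ketone bodies (−0.15), of 11 for thyroid hormone and aromatic amino acid transport (0.01) or of 10 regulators of the Hif1 and Ppara type (0.01). In these lists Pdp1, a phosphatase that activates pyruvate dehydrogenase, differed by −1.05 ± 0.33 (SE; limma adjusted p = 0.0948), without overlap between strains and with SHR 3-3 far below the other rats. Without SHR 3-3 the Pdp1 difference was −0.69 and passed (limma adjusted p = 0.0476), as with array weights (0.0479) and with the slide (0.0070) or the leading title number (0.0281) as random block. Pdk4, a kinase that turns pyruvate dehydrogenase off, differed by 0.53 ± 0.20 (limma adjusted p = 0.152), and by −0.02 on the shared slide. Oxct1 and Bdh1, enzymes of ketone body use, differed by −0.82 ± 0.28 and −0.34 ± 0.12 (limma adjusted p = 0.118 and 0.135); without SHR 3-3 the Oxct1 difference was −0.53. Both passed with the slide (limma adjusted p = 0.00958 and 0.00884) or the leading title number (0.0401 and 0.0402) as random block. Crym, which binds thyroid hormone in the cytosol, differed by −0.57 ± 0.36, and Slc3a2, the heavy chain of several amino acid exchangers, by 0.35 ± 0.13 (limma adjusted p = 0.401 and 0.160). Without SHR 3-3 the Crym difference was −0.15. Among the regulators, Myc differed by 0.41 ± 0.20 and Ppargc1a, a coactivator of mitochondrial genes, by 0.28 ± 0.11 (limma adjusted p = 0.288 and 0.170). Myc was at 0.20 without SHR 3-3 and at −0.09 on the shared slide. Pdk4, Slc3a2, Myc and Ppargc1a passed with the slide as a random block (limma adjusted p = 0.00921, 0.0183, 0.0389 and 0.0488). Of 13 genes for proton and bicarbonate handling, 1 fell and 0 rose, beside 2.85% and 1.51% of all genes. The 1 that fell was Slc4a4, a sodium bicarbonate cotransporter, by 0.47 ± 0.10 (limma adjusted p = 0.0176). The call of Slc4a4 was lost with slide as a fixed block (−0.34) and without WKY 1-2 (limma adjusted p = 0.0555). It was kept with slide as a random block.

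**Figure D4:**
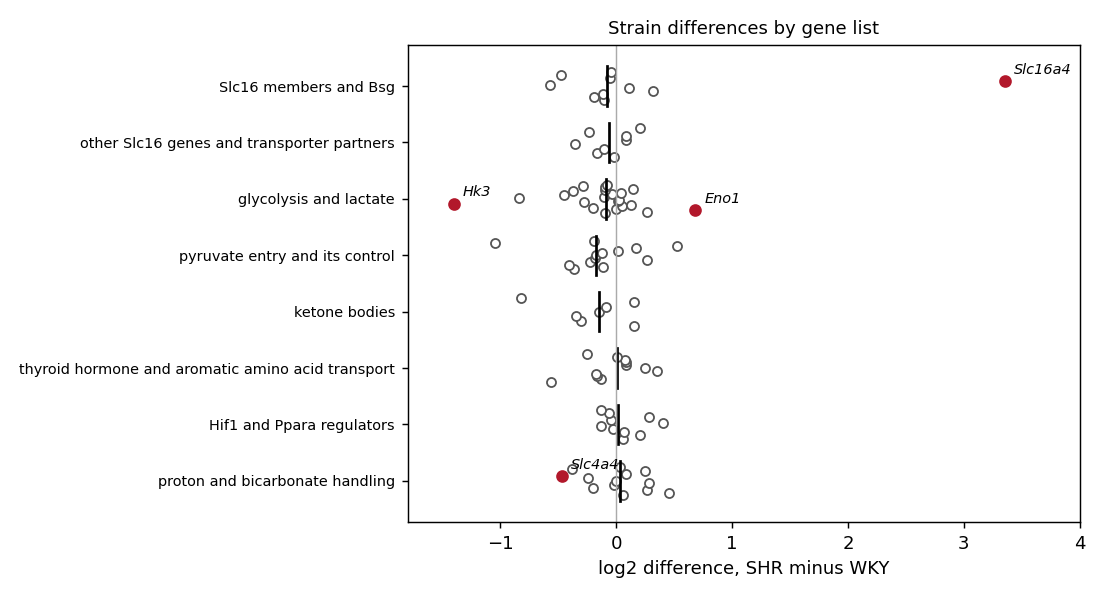
Log2 difference of SHR minus WKY for each tested gene, by gene list. Filled red points are below a limma adjusted p of 0.05 (for Slc16a4 this follows from its choice), open points are not, and black bars are list medians. Slc16a4 at 3.36 lies alone on the right; Hk3 lies at −1.40 and Eno1 at 0.68.

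On chromosome 2, 9 tested genes near Slc16a4, on both sides of it in the order of the GRCr8 gene table, had no strain difference past the threshold. Lamtor5, a subunit of the Ragulator complex and the next protein-coding gene on one side, differed by −0.05 ± 0.11 (SE, n = 5 per strain; limma adjusted p = 0.861). Kcnc4, a potassium channel gene and the nearest tested gene on the other side, differed by 0.13 ± 0.10 (0.490). The largest difference among the 9 was that of Csf1, the macrophage growth factor, at −0.45 ± 0.13 (limma adjusted p = 0.0720), followed by Prok1 (−0.32), Cym (0.30), Slc6a17 (−0.13), Kcna2 (0.11), Kcna10 (−0.06) and Ahcyl1 (0.03). Csf1 passed without SHR 3-4 (−0.53, limma adjusted p = 0.0361) and with the slide (0.00405) or the leading title number (0.0194) as random block. Prok1 passed with the slide as a random block (limma adjusted p = 0.00819) and turned to 0.08 on the shared slide. These 9 strain differences were all smaller than 0.5 on the log2 scale, beside 3.36 for Slc16a4. A second probe of Ahcyl1 differed by 0.29 and did not pass over all probes (limma adjusted p = 0.115).

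**Figure D5:**
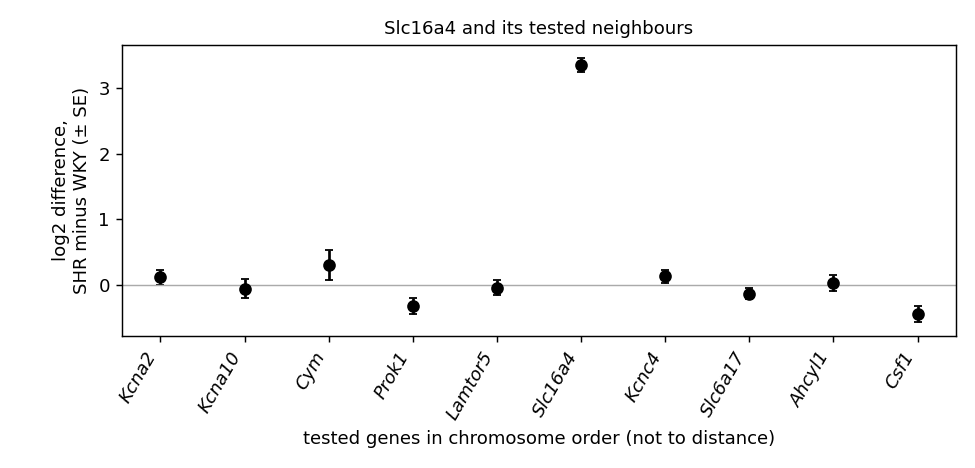
Log2 difference of SHR minus WKY (points, ± SE, n = 5 per strain) for Slc16a4 and 9 tested genes near it in chromosome order, evenly spaced and not to distance. Slc16a4 stands at 3.36 and Csf1, the farthest from 0 of the others, at −0.45.

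The 5 genes whose values followed Slc16a4 most closely over the 10 arrays were Prnp, the prion protein gene (Pearson r 0.994), Agtrap (0.992), Cbr1 (0.991), Setd4 (0.985) and Rhag (0.984). They are a description: each was also higher in SHR, by 1.45, 3.72, 6.16, 2.36 and 3.86 on the log2 scale, and r over 2 separated strains reflects mostly that gap. After each strain's mean was taken away, r with Slc16a4 over the 10 arrays was 0.41 for Prnp, −0.17 for Agtrap, −0.27 for Cbr1, −0.49 for Setd4 and −0.46 for Rhag. They lie on chromosomes 3, 5, 11 and 9 (Cbr1 and Setd4 both on 11), and Slc16a4 on 2.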

How the data were processed

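Amplified RNA of 10 submandibular gland samples was measured on one-colour Agilent arrays, 5 per strain, with the strain taken from the labels. Feature Extraction 11.0.1.1 made the deposited intensity values, per the file headers; they are linear, background-subtracted and not scaled from array to array. A second deposited table from the authors gives log2 values, all 10 columns having a median of 7.19; for its scaling, the method is not given in the sources used. The labels do not name extraction batches.

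Here log2 processed intensity was reduced by each array's 75th percentile, the software's outlier spots were set to missing and spots of the same probe were averaged. A probe was kept where 5 or more of the 10 arrays had it well above background (29266 of 30367). Symbols came from RefSeq accessions (gene table of GRCr8), which named 18005 probes and left 12362 unnamed. The brightest kept probe stood for a gene. SHR and WKY were compared with limma (lmFit and eBayes, two-sided, no covariate), with Benjamini-Hochberg adjustment over 14711 genes and a threshold of 0.05. The labels do not state that each sample is a separate rat, so p-values measure only the spread between these samples, which may be technical. Arrays with 1 scan time were taken as being on the same slide, 3 slides in all.

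The members and gene lists were chosen with earlier results of these data known. Named are all members, list genes past the threshold (up to 4 per list, or 2 as values where none passed), 5 tested neighbours on each side of Slc16a4 (1 of these 10 is not reported here) and the 5 genes most like it. Emb, Slc16a5, Ldha, Ldhb, Slc12a2, Aqp5, Bhlha15, Csf1r and Egf were named beyond that rule, after their values were seen. Gene lists named in the text are given with their counts. Over all tested genes, 1.51% passed as higher in SHR and 2.85% as lower. Of cell type marker lists, these passed: Oprpn (higher in SHR) and Smgc (lower) of 5 acinar genes, Slc4a4 (lower) of 5 duct, Prb3 (lower) of 2 parotid, Plvap (higher) of 4 endothelium and 2 (lower) of 5 macrophage genes, and 0 in granular duct (of 4), T cell (of 3), skeletal muscle (of 6), adipocyte (of 4) and erythrocyte (of 4) genes. Oprpn and Plvap each kept the call in 2 of 10 fits that leave out an array and lost it with slide as a fixed block. Oprpn also lost it with quantile normalisation, normexp, the authors' values and an intensity trend. Prb3 lost its call with normexp and with slide as a fixed block. In the lists with 0 calls, Klk1c12 (granular duct) passed without SHR 3-3 (−0.84, limma adjusted p = 0.00383) and with slide as a random block (0.0280). Cd3d, Ckm, Fabp4 and Ahsp also passed with slide as a random block (limma adjusted p = 0.0329, 0.0280, 0.0214 and 0.0260). Ckm passed with the leading title number as well (limma adjusted p = 0.0431).

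Alternatives were other normalisations, the authors' values, other filters, other probe choices, array weights, an intensity trend, slide and title number as blocks, and leaving out each array. Normexp (offset 50) used the median signal. The fit was tested on simulated data. Software was R 4.3.3 with limma 3.58.1; for sequences and plots, Python 3.11.15 with pandas 2.3.3, numpy 2.4.6 and, for the plots, matplotlib 3.10.9.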

Additional observations from a re-analysis of the deposited data

Results flagged for a closer look

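Of 106 sets of 5 arrays (the named genes, each strain apart), 8 held 1 array far from the others by Dixon's criterion, which chance does for about 1 in 20 sets. None of the 8 was a member of the transporter family. In SHR 3-3 there were 5: Pdp1 at −2.67 (next SHR array −1.08), Crym, a thyroid hormone binding protein, at −2.64 (−0.78), Myc at 0.47 (−0.46), Klk1c12, a kallikrein, at −0.15 (4.68) and Egf at 0.73 (4.39), as log2 values relative to the array's 75th percentile. The others were Slc4a1 in WKY 1-2 at −2.31 (−2.61), Lamtor5 in WKY 4-1 at −0.10 (−0.16) and Slc6a17 in SHR 3-1 at −3.77 (−3.47).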

How the results depend on the processing

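Slc16a4 kept its direction under every alternative run, at 2.84 (normexp) to 3.54 (slide as a fixed block) on the log2 scale. Leaving out 1 array gave 3.30 to 3.43. Members higher in SHR numbered 1 (Slc16a4, chosen for it), except 2 with slide as a random block. Members lower numbered 0, except 1 with array weights, 2 with slide and 2 with the leading title number as a random block, and 0 to 1 leaving out 1 array (1 without SHR 3-1). The 9 other members passed in 7 of 206 tested settings. All tested genes past the threshold, higher in SHR, numbered 222; they became 356 with quantile normalisation, 336 with median scaling, 423 with the authors' values, 12 with slide as a fixed block, 1350 with it as a random block and 669 with the leading title number. All tested genes past the threshold, lower in SHR, numbered 419; they became 32, 2101 and 1110 under the last 3 of these. Leaving out 1 array gave 125 to 237 higher calls and 218 to 512 lower ones, the lowest of both without WKY 1-3. The fixed slide block shared 35 calls with the 641, and its strain difference rests on SHR 2-1. Over 53 named genes, 42 calls were lost and 33 gained. For 14 genes the sign turned in some setting, 32 times in all, 0 of them past the threshold in either fit. With slide as a fixed block the values became 0.11 (Slc16a8), 0.30 (Slc16a10), 0.10 (Slc5a12), −0.021 (Pdk4), −0.091 (Myc), 0.0022 (Cd3d), 0.16 (Tnnt3), 0.27 (Ahsp), 0.14 (Kcna10), 0.084 (Prok1) and −0.17 (Ahcyl1). With quantile normalisation and the authors' values, in that order, they became 0.0073 and 0.0082 (Slc16a8), 0.026 and 0.033 (Slc16a10) and 0.023 and 0.021 (Kcna10). Normexp gave 0.035 (Slc16a6), 0.0066 (Slc16a10) and 0.023 (Kcna10), and slide as a random block 0.0028 (Slc16a6). Leaving out 1 array gave −0.11 to 0.041 for Slc16a8, −0.29 to 0.0052 for Slc16a10, −0.19 to 0.034 for Bsg, −0.13 to 0.015 for Tnnt3, −0.14 to 0.038 for Kcna10, −0.14 to 0.042 for Lamtor5 and −0.030 to 0.10 for Ahcyl1. The cause was not tested. Slc16a10 had no value where all arrays had to be above background, and its dimness limits it. No paired analysis was possible because the strains share no replicate numbers.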

Other observations

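The rats of 1 strain differed in the transporter genes by amounts that varied by gene. Against the average of its 4 strain mates, the log2 value of SHR 3-3 was below by 0.77 for Slc16a3, 0.69 for Bsg, 0.61 for Slc16a10, 0.49 for Slc16a7, 0.35 for Slc16a4 and 0.29 for Slc16a11. It lay above that mean by 0.46 for Slc16a13 and by 0.15 for Slc16a6. The same array was 0.05 above for Slc16a1 and 0.03 below for Slc16a8. In WKY, rats 4-1 and 4-2 were each above the average of their 4 strain mates for Slc16a1 (by 0.37 and 0.52) and Slc16a7 (by 0.27 and 0.29) and below it for Slc16a13 (by 0.19 and 0.16). These deviations are values of single rats and were not tested.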
